A study of Mus musculus with 4 samples.

Results

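The genes described here act in mitosis. They are 49 named genes for mitotic kinases and cyclins, kinetochore proteins, the spindle checkpoint, condensin, spindle motors and cytokinesis, taken by symbol from a table of 22138 mouse genes. All 49 were found in the table, and all 49 passed the filter on low values (average RPKM no lower than 0.5), which 12486 genes passed in all. RPKM is the number of reads scaled to the length of the gene and to the size of the library. The cells were TT2, a female line of mouse embryonic stem cells (C57BL/6xCBA), kept without feeder cells in serum and LIF. Both groups were transfected with siRNA at 100 nM and again, 24 hours later, at 50 nM. The groups differed in the siRNA: a control siRNA (n = 2 libraries) or an siRNA against Hnrnpk (n = 2 libraries), whose product hnRNP K binds RNA and DNA. The labels' protocol places RNA extraction about 72 hours after the second transfection, whereas the design text counts 72 hours from transfection without saying which. The design text calls the libraries biological replicates; the sources used here do not say whether they were separate cultures, so p-values measure only the spread between these libraries.

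Mitosis begins when CDK1, bound to cyclin B, is freed from the inhibitory phosphates that WEE1 adds and CDC25 phosphatases remove. Chromosomes are then compacted by condensin and attach to spindle microtubules through kinetochores. The spindle checkpoint holds back the anaphase-promoting complex (APC/C), a ubiquitin ligase, until every kinetochore is attached. APC/C with CDC20 then marks securin and cyclin B for destruction, separase opens cohesin and the cell divides. Embryonic stem cells cycle fast, with short gap phases, and many mitotic genes are transcribed mainly late in the cycle.

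Hnrnpk fell from 231 ± 6.69 to 69.2 ± 1.78 RPKM (SD, n = 2 each). Relative to the first control library, depth read from the steps between low RPKM values was 0.982 for the other control library and 0.891 and 0.882 for the Hnrnpk siRNA libraries. Absolute read numbers were not recovered. Of the embryonic stem cell markers, 10 of 10 were present. Their summed levels were 4094 and 3935 RPKM in the control libraries and 4699 and 5022 RPKM in the Hnrnpk siRNA libraries. Dppa5a, the highest of these markers, weighed most in that sum and went from 1320 and 1276 RPKM to 2164 and 2451 RPKM. It and Nanog were the 2 called higher. The 4 called lower were Sox2 (231 and 195 against 147 and 146 RPKM), Tdgf1, Utf1 and Fgf4. Markers of primitive endoderm summed to 5.27 and 5.21 RPKM in control and to 30.6 and 31.3 RPKM in Hnrnpk siRNA libraries, where 5 of the 5 tested (7 in the table) were called higher. Trophectoderm markers summed to 29.0 and 34.7 against 63.5 and 67.9 RPKM, with 4 of the 4 tested (6 in the table) called higher. Most of that sum came from Krt8 (10.8 and 13.7 against 21.2 and 23.7 RPKM) and Krt18 (15.8 and 18.9 against 30.9 and 33.2 RPKM). Elf5, under 0.5 RPKM in every library and not tested, was lower in the Hnrnpk siRNA libraries. Fibroblast markers summed to 10.4 and 8.79 against 5.05 and 5.31 RPKM, and 5 of those 8 genes were under 0.5 RPKM in every library. The part of these marker changes in the values of mitosis genes was not tested.

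Mitosis genes moved in both directions and mostly by little. After Hnrnpk siRNA, 19 of the 49 were called higher and 13 lower, and 17 were not called (limma, Benjamini-Hochberg adjusted p under 0.05 over all genes tested). The background over all genes tested was 32.2% higher and 35.0% lower, together 67.2%, and of the 6849 genes in the range of mean levels of the mitosis genes (7.38 to 343 RPKM) 66.6% were called, so the number of calls among mitosis genes lay near the background. Their median log2 change was 0.12, where the median over all genes tested was -0.015. It was 0.069 without Hnrnpk siRNA replicate 1 and 0.00077 with the trend of each library on GC content removed. When each library was rescaled to a common sum, 14 were called higher and 16 lower, with a median of 0.038 where that of all genes tested was -0.10, beside 26.2% and 40.7% of all genes tested under the same scaling. RNA from a whole culture cannot tell fewer cells in mitosis from less of a transcript in each cell.

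Changes of a log2 size of 0.5 or more were called in 6 of the 49 genes (12.2%), against 31.7% of all genes tested and 25.1% of the genes in that range of levels. Those 6 were Spc25, Ndc80, Pttg1, Kif20a and Cdc20, all higher, and Cenpk, which fell. Cenpk was the single mitosis gene past a log2 size of 1, a size reached by 8.51% of all genes tested. The median size of the log2 change, whatever its sign, was 0.24 in mitosis genes, 0.28 in genes of that range and 0.32 in all genes tested. Libraries of the 2 groups did not overlap in 43 of the 49 (87.8%), beside 84.7% of all genes tested. For 2 libraries against 2, the smallest p of an exact two-sided permutation test is 0.333, so each call rests on the spread that limma shares across genes.

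**Figure D1:**
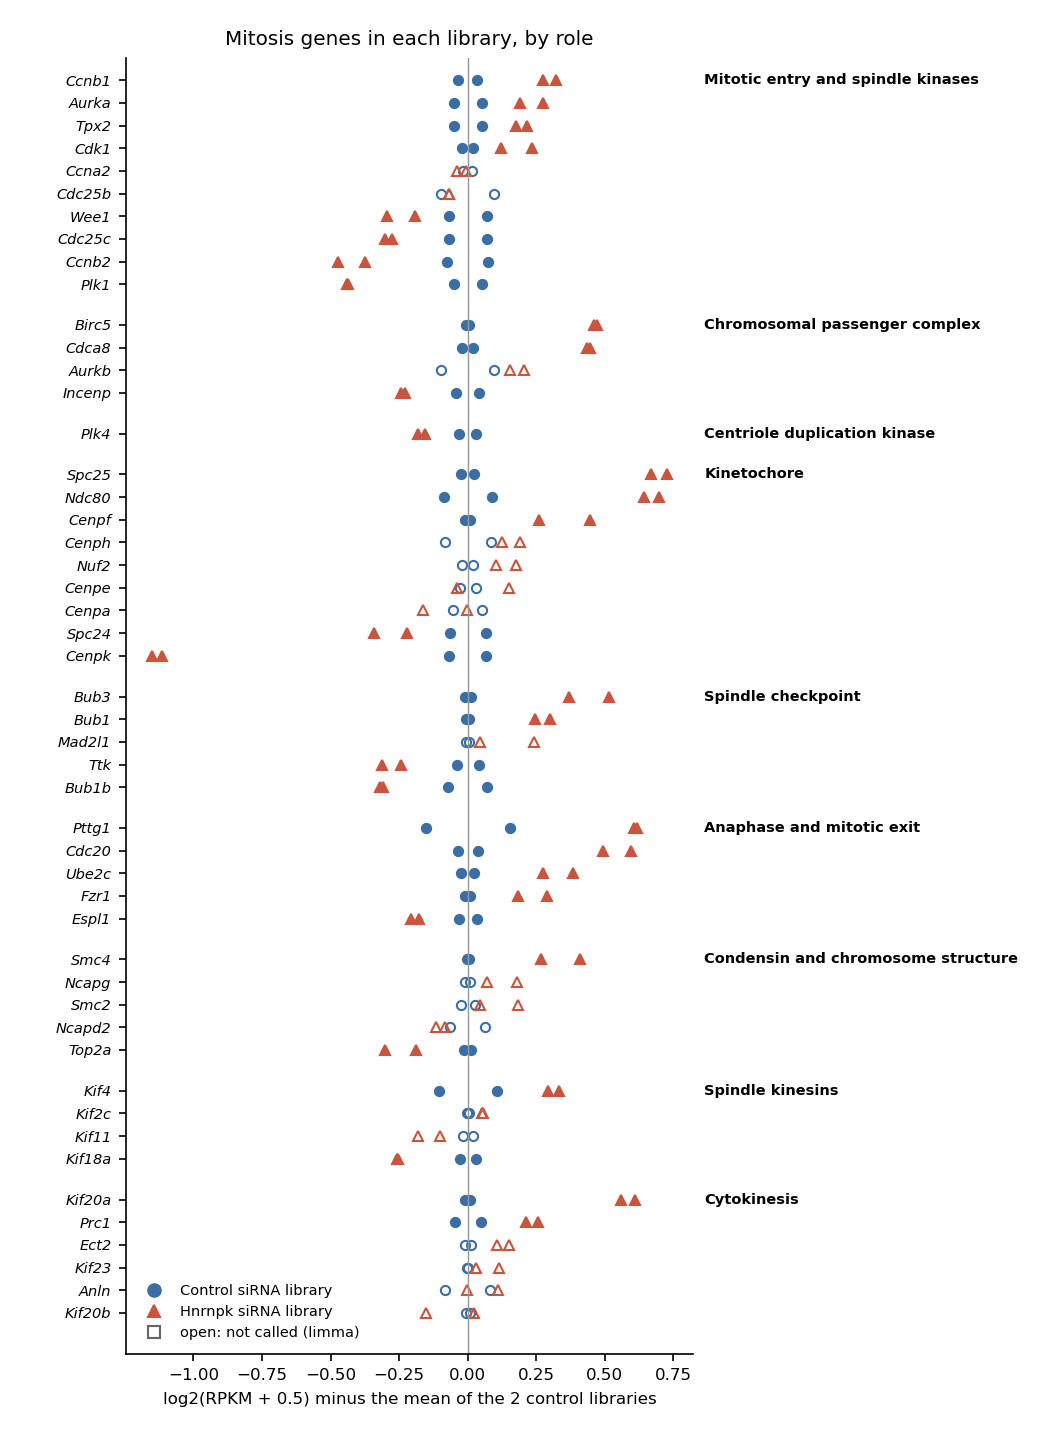
Each row is a mitosis gene and each point a library: circles are control siRNA (n = 2), triangles Hnrnpk siRNA (n = 2), and the horizontal axis is log2(RPKM + 0.5) minus the mean of the control libraries. Filled points mark the 32 genes called by limma, open points the 17 not called; Cenpk lies alone at the left, and Spc25, Ndc80, Pttg1, Kif20a and Cdc20 lie farthest to the right.

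**Figure D2:**
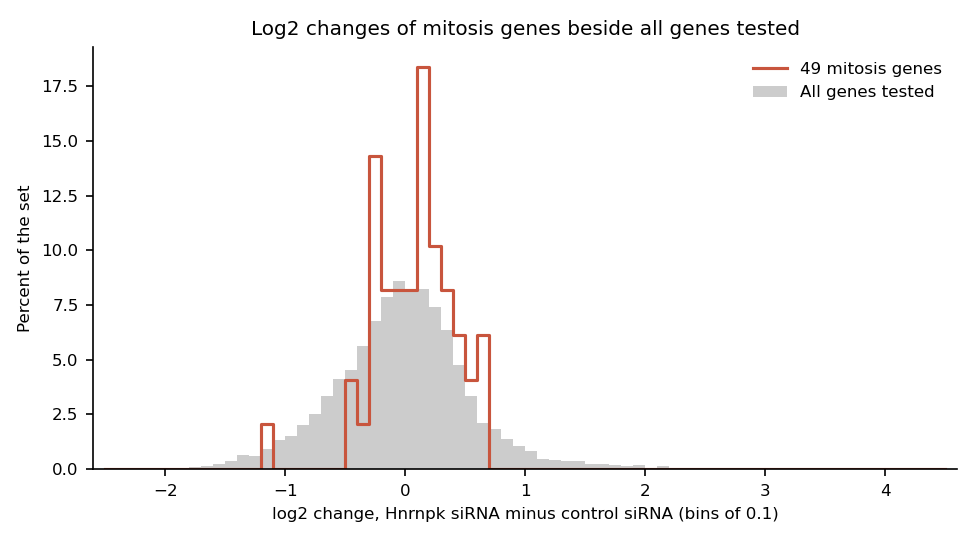
Percent of genes per bin of 0.1 in log2 change (Hnrnpk siRNA minus control siRNA), grey bars for the 12486 genes tested and the line for the 49 mitosis genes. The mitosis genes lie between -1.13 and 0.70, inside the range of all genes tested, -2.42 to 4.38.

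Many mitotic promoters are known to carry a CHR (cell cycle genes homology region), which the MuvB core of the DREAM and MMB complexes binds, together with CCAAT boxes bound by NF-Y. Promoter windows from RefSeq (GRCm38.p6, 250 bases before to 50 after the transcription start) were matched by symbol for 40 of the 49 genes; Ccna2, Wee1, Cdc25c, Tpx2, Aurkb, Incenp, Spc24, Smc4 and Kif20a were not matched. A CHR, spelled TTTGAA in its usual form and with a C as TTCGAA, was searched on both strands and found in 29 of the 40 (72.5%), beside 21.7% of all 27025 genes with a window of this length and 15.7% of the 8756 of them that were tested. A CCAAT box, searched as CCAAT on either strand, was found in 30 of the 40 (75.0%), beside 41.1% of all genes and 43.7% of those tested. Both motifs stood in the same window in 25 of the 40 (62.5%), beside 8.61% of all genes and 6.85% of those tested. The CHR lay within 50 bases of the start in 27 genes (67.5%), beside 6.12% of all genes and 4.15% of those tested, a distance chosen after the positions were seen. E2F sites, spelled TTTCGCGC, TTTGGCGC, TTCCCGCC and TTTCCCGC, were searched on both strands and found in 5 (12.5%), beside 4.0% of all genes and 7.91% of those tested.

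The motif was about as common in mitosis genes that rose as in those that fell. A CHR was found in 12 of 16 genes called higher (75.0%), 6 of 9 called lower (66.7%) and 11 of 15 not called (73.3%). The median log2 change was 0.11 over the 29 genes with a CHR and 0.14 over the 11 without. The windows without it were those of Ccnb1, Birc5, Plk4, Cenpe, Cenph, Cenpk, Nuf2, Mad2l1, Fzr1, Pttg1 and Kif18a. These shares are descriptions of letters in a window, with no test.

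The stretches below are printed because they set the layout of promoters whose transcripts rose beside that of promoters whose transcripts fell. They run 5′ to 3′ on the strand of the gene; capitals mark CHR matches and CCAAT boxes, which read as TTCAAA and ATTGG where they lie on the other strand, and none goes more than 30 bases past the start. The windows of Spc25, Cdc20, Cdca8, Bub3 and Ube2c belong to genes called higher, those of Ccnb2, Ttk and Espl1 to genes called lower. Ccnb1 (higher) and Cenpk (lower) show CCAAT boxes without a CHR, and Cenpk has 2 further RefSeq starts that are not shown. The Cenpk window was picked because it holds 2 CCAAT boxes near its start. Those of the other starts have a CCAAT box at -159 and at -238. Bub3 also has a further start, not shown, from which its CHR lies at -167. Matches more than 130 bases before the start are not printed. In the windows shown these were a CHR of Ccnb2 at -167 and CCAAT boxes of Ube2c between -228 and -151.
Spc25 (chr2:69206184-69206276, minus strand): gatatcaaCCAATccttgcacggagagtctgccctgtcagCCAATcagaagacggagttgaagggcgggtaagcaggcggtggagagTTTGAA
Cdc20 (chr4:118437339-118437404, minus strand): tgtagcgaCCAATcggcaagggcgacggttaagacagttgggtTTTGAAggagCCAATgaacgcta
Cdca8 (chr4:124936888-124937010, minus strand): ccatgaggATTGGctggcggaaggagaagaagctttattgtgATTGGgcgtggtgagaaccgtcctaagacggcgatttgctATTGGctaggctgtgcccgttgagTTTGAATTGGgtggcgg
Bub3 (chr7:131560288-131560350, plus strand): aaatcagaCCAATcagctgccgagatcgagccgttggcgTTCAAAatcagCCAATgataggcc
Ube2c (chr2:164769833-164769913, plus strand): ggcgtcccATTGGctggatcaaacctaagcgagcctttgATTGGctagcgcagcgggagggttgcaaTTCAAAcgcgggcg
Ccnb2 (chr9:70421537-70421649, minus strand): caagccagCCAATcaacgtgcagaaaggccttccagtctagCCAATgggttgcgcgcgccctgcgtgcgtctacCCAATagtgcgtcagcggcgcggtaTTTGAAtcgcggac
Ttk (chr9:83834616-83834709, plus strand): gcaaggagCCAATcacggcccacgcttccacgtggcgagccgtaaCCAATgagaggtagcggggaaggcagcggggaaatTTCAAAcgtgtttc
Espl1 (chr15:102296241-102296279, plus strand): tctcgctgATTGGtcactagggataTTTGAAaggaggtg
Ccnb1 (chr13:100786541-100786593, minus strand): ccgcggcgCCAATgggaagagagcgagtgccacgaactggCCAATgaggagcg
Cenpk (chr13:104228893-104228938, plus strand): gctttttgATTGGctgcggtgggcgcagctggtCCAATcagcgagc
In each of the first 8 stretches a CHR stood with 1 to 4 CCAAT boxes, and in Cdca8 the CHR and a reversed CCAAT box overlap. All 8 are among the 25 of 40 genes with both motifs in a window, so this pairing follows from the choice of genes. Ndc80, called higher, had a CHR and no CCAAT box, and Kif18a, called lower, had neither. The promoters of Cdc20 and Ccnb2 both hold a forward CHR and more than 1 CCAAT box, while their transcripts moved in opposite directions.

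**Figure D3:**
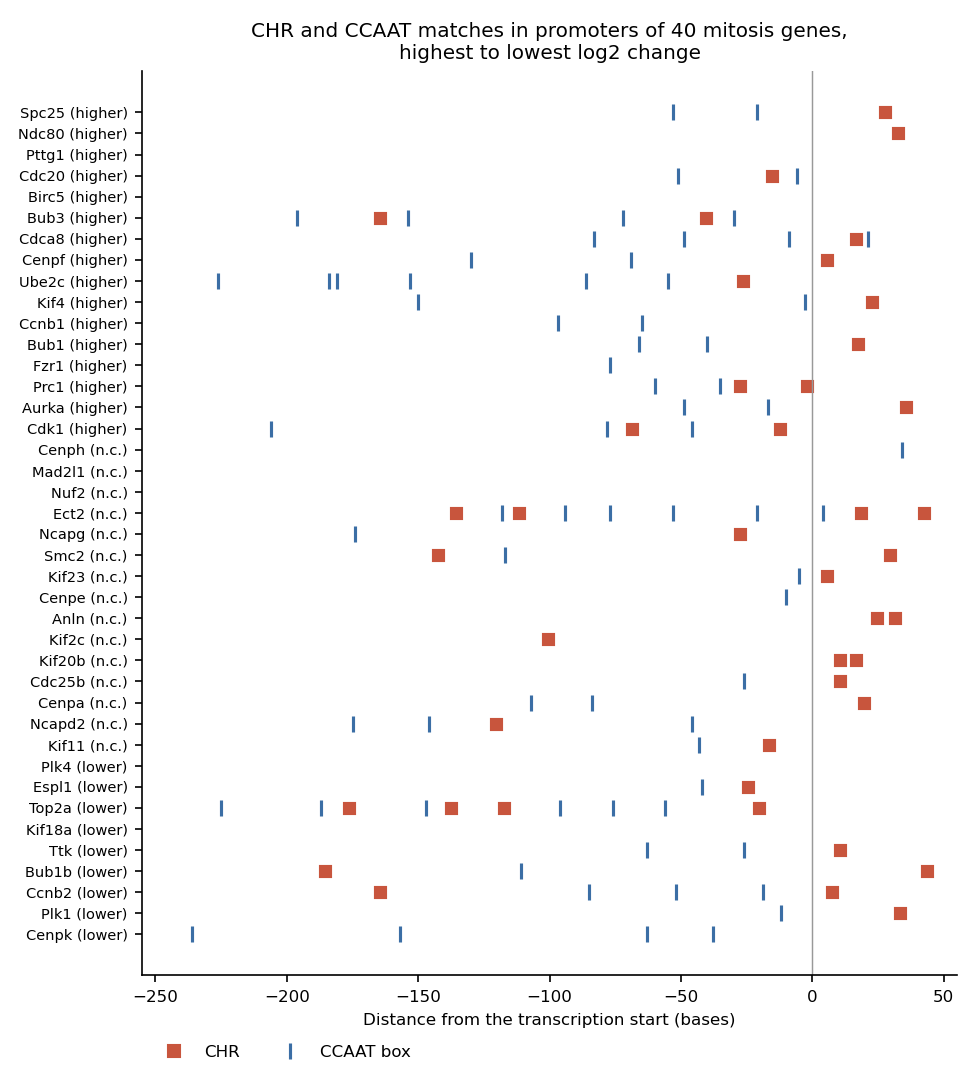
Positions of CHR matches (squares) and CCAAT boxes (bars) by distance in bases from the transcription start, for the 40 mitosis genes with a RefSeq window, ordered from the highest to the lowest log2 change (n.c., not called). Genes with more than 1 start (Bub3, Cenpk, Ect2 and Prc1) show the matches of all their windows, each placed from its own start; squares cluster near the start from the top to the bottom of the plot.

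Among the cyclins, kinases and phosphatases of mitotic entry, 4 of 10 were called higher, 4 lower and 2 were not called. Over all genes tested 32.2% were called higher and 35.0% lower. The B-type cyclins, which activate CDK1, parted. Ccnb2 (ENSMUSG00000032218, GRCm38 chromosome 9, 70407692 to 70421547) measured 209 and 188 RPKM under control siRNA against 142 and 153 RPKM under Hnrnpk siRNA. It fell by 0.42 on the log2 scale (SE 0.0739, limma adjusted p = 0.000679). Ccnb1 (ENSMUSG00000041431, chromosome 13, 100778650 to 100786570) measured 86.6 and 82.7 RPKM under control siRNA against 102 and 106 RPKM under Hnrnpk siRNA, a log2 change of 0.30 (SE 0.0624, adjusted p = 0.00209). The groups did not overlap for either cyclin. Ccnb1 shares 51.9% of its transcript with other annotated sequences at 95% identity or more, Ccnb1 pseudogenes among them, and the sources used here do not say how such reads were counted.

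Plk1, the polo-like kinase that acts from entry to cytokinesis, measured 188 and 175 RPKM under control siRNA against 134 and 134 RPKM under Hnrnpk siRNA. Plk1 fell by 0.44 (SE 0.0652, adjusted p = 0.000246), the largest fall of this role. Cdc25c, a phosphatase that activates CDK1, fell by 0.29 (adjusted p = 0.00555), and Wee1, the kinase that opposes it, fell by 0.24 (adjusted p = 0.0134). An activator and an inhibitor of CDK1 were thus both called lower. The Wee1 call was lost without control replicate 1 and without Hnrnpk siRNA replicate 2.

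Aurka, the Aurora kinase of spindle poles, and Tpx2, its activator, had log2 changes of 0.23 and 0.20 (adjusted p = 0.0117 and 0.0213). Each of these calls held in 11 of 15 alternative analyses. Both were lost when libraries were rescaled to a common sum and without control replicate 2, that of Aurka also without Hnrnpk siRNA replicate 2 and that of Tpx2 without Hnrnpk siRNA replicate 1. Cdk1 itself measured 67.4 and 65.6 RPKM under control siRNA against 72.3 and 78.3 RPKM under Hnrnpk siRNA, a log2 change of 0.18 (adjusted p = 0.0352) that held in 7 of 15 alternatives and was lost without either control library and without Hnrnpk siRNA replicate 2. Ccna2, the cyclin of S phase and early mitosis, was at 149 ± 2.43 and 147 ± 2.20 RPKM (SD, n = 2 each), with overlapping groups and no call (log2 change -0.022, adjusted p = 0.762). Cdc25b was not called either (log2 change -0.070, adjusted p = 0.452).

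The chromosomal passenger complex joins Aurora B kinase to the scaffold INCENP, survivin (Birc5) and borealin (Cdca8), and corrects wrong attachments. Its subunits did not move as a block. Birc5 (ENSMUSG00000017716, chromosome 11, 117849251 to 117855743) measured 58.7 and 58.3 RPKM under control siRNA against 81.3 and 80.7 RPKM under Hnrnpk siRNA, a rise of 0.47 (SE 0.0593, limma adjusted p = 9.15e-05). Cdca8 rose by 0.44 (adjusted p = 0.000152). Incenp went the other way, from 94.4 and 89.1 RPKM to 77.3 and 78.1 RPKM, and fell by 0.24 (SE 0.0625, adjusted p = 0.00747). Aurkb had 69.2 ± 6.56 and 78.2 ± 1.93 RPKM (SD, n = 2 each) and was not called (log2 change 0.18, adjusted p = 0.0572), although its groups did not overlap; it was called higher in 4 of 15 alternatives.

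Plk4, the kinase that starts centriole duplication, measured 15.2 and 14.5 RPKM under control siRNA against 13.0 and 13.3 RPKM under Hnrnpk siRNA. Its fall of 0.17 (adjusted p = 0.0481) held in 8 of 15 alternatives, and was lost without control replicate 1 and without either Hnrnpk siRNA library.

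Kinetochore genes held both ends of the distribution, with 3 of 9 called higher, 2 lower and 4 not called. The shares over all genes tested were 32.2% higher and 35.0% lower. Cenpk (ENSMUSG00000021714, chromosome 13, 104228611 to 104252392) encodes a subunit of the inner kinetochore that sits on centromeric chromatin. It measured 9.82 and 10.8 RPKM under control siRNA against 4.50 and 4.36 RPKM under Hnrnpk siRNA, both well below both controls. Cenpk fell by 1.13 (SE 0.0798, limma adjusted p = 2.39e-06), and its ratio of means was 0.429. Exons of Ppwd1 on the opposite strand overlap 4.45% of its exonic bases. Cenph, whose product pairs with CENP-K, was not called (20.1 ± 1.68 and 22.4 ± 0.701 RPKM, SD, n = 2 each; log2 change 0.16, adjusted p = 0.0865), except without control replicate 2. Within a library the ratio of Cenph to Cenpk was 1.92 and 1.96 in control and 5.09 and 5.02 after Hnrnpk siRNA.

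CENP-H and CENP-K form a module with CENP-I and CENP-M, whose genes were not among the 49. Cenpm averaged 60.6 ± 3.35 RPKM in control and 37.9 ± 1.49 RPKM in Hnrnpk siRNA libraries (SD, n = 2 each), a log2 change of -0.67 (limma adjusted p = 2.01e-05). Cenpi, named after its values were seen, averaged 7.87 ± 0.416 RPKM in control and 6.17 ± 0.182 RPKM in Hnrnpk siRNA libraries (SD, n = 2 each), a log2 change of -0.33 (limma adjusted p = 0.00423). Of the genes of this module, Cenpk, Cenpm and Cenpi were thus called lower and Cenph was not called. Over all genes tested 35.0% were called lower. Of the 28 kinetochore and centromere genes measured beyond the 49, 11 were called higher and 11 lower, and Cenpq rose by 0.62.

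The NDC80 complex is the rod that grips microtubules, with NDC80 and NUF2 at its outer end and SPC24 and SPC25 at its inner end. Spc25 (ENSMUSG00000005233, chromosome 2, 69193895 to 69206194) measured 24.7 and 23.9 RPKM under control siRNA against 39.0 and 40.6 RPKM under Hnrnpk siRNA. Its rise of 0.70 on the log2 scale (SE 0.0629, limma adjusted p = 1.04e-05) was the largest rise of the 49 genes. Ndc80 (ENSMUSG00000024056, chromosome 17, 71496100 to 71526857) measured 26.8 and 30.4 RPKM under control siRNA against 44.9 and 46.6 RPKM under Hnrnpk siRNA, a rise of 0.67 (SE 0.0733, adjusted p = 3.45e-05). Ndc80 shares 22.9% of its transcript with other annotated genes at 95% identity or more.

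The partners of these subunits were not called higher. Spc24 fell by 0.28 (71.1 ± 4.61 to 58.4 ± 3.44 RPKM, SD, n = 2 each; limma adjusted p = 0.00641), and Nuf2 was not called (37.7 ± 0.731 and 41.6 ± 1.56 RPKM, SD, n = 2 each; log2 change 0.14, adjusted p = 0.0738), although it was with the trend on gene length removed. Spc24, the highest of the 4 by RPKM in every control library, stood closer to its partners after Hnrnpk siRNA. The ratio of Spc25 to Spc24 was 0.365 and 0.322 in control libraries and 0.697 and 0.668 in Hnrnpk siRNA libraries.

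Of the other kinetochore genes, Cenpf, a large protein of the outer corona, rose by 0.35 (40.6 ± 0.360 to 52.1 ± 4.80 RPKM, SD, n = 2 each; limma adjusted p = 0.00196). Cenpa, the histone H3 variant that marks centromeres, measured 90.2 and 83.9 RPKM under control siRNA against 77.6 and 86.7 RPKM under Hnrnpk siRNA, and was not called (log2 change -0.084). Cenpe, a kinesin of the kinetochore, was not called either (log2 change 0.057). For Cenpa and Cenpe the libraries of the groups overlapped.

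In the spindle checkpoint 2 of 5 genes were called higher, 2 lower and 1 was not called, beside 67.2% of all genes tested called. Bub3 (ENSMUSG00000066979, chromosome 7, 131560222 to 131571895), which brings BUB1 and BUBR1 to kinetochores, measured 125 and 123 RPKM under control siRNA against 161 and 178 RPKM under Hnrnpk siRNA. It rose by 0.44 (SE 0.0695, limma adjusted p = 0.000349). Bub1, a kinase that BUB3 binds, rose by 0.27 (adjusted p = 0.00305). Bub1b, which encodes BUBR1 of the inhibitor that blocks CDC20, moved the opposite way, from 83.2 and 75.2 RPKM to 63.7 and 63.3 RPKM, a fall of 0.32 (SE 0.0678, adjusted p = 0.00243).

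Ttk, the MPS1 kinase at the head of the checkpoint, fell by 0.28 (adjusted p = 0.00398). Mad2l1, which encodes MAD2, measured 75.8 and 76.5 RPKM under control siRNA against 78.7 and 90.0 RPKM under Hnrnpk siRNA, with no call (log2 change 0.14, adjusted p = 0.114) except without Hnrnpk siRNA replicate 1. The ratio of Bub3 to Bub1b went from 1.51 and 1.64 in control to 2.53 and 2.82 after Hnrnpk siRNA.

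Genes of anaphase and mitotic exit were called in 5 of 5 cases, 4 higher and 1 lower, a group of few genes against a background of 67.2% called. Cdc20 (ENSMUSG00000006398, chromosome 4, 118432901 to 118437352), which activates the APC/C at anaphase, had the highest mean of the 49 genes. It measured 286 and 272 RPKM under control siRNA against 392 and 421 RPKM under Hnrnpk siRNA, a rise of 0.54 (SE 0.0711, limma adjusted p = 0.000111). Fzr1, or CDH1, the activator that follows it, rose by 0.24 (adjusted p = 0.00864), a call lost when libraries were rescaled to a common sum and without Hnrnpk siRNA replicate 2. Ube2c, the enzyme that starts ubiquitin chains for the APC/C, rose by 0.33 (adjusted p = 0.00172); exons of Tnnc2 on the other strand overlap 22.8% of its exonic bases.

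Pttg1, which encodes securin, measured 48.7 and 39.3 RPKM under control siRNA against 66.9 and 67.4 RPKM under Hnrnpk siRNA, with a rise of 0.61 (SE 0.0922, limma adjusted p = 0.000268). Its control libraries lay farther apart than those of most mitosis genes, yet both lay below both Hnrnpk siRNA libraries. Espl1 encodes separase, the protease that securin holds inactive. It went from 64.4 and 61.6 RPKM to 55.6 and 54.5 RPKM, a fall of 0.19 (SE 0.0614, adjusted p = 0.0189) that was lost without control replicate 1, without Hnrnpk siRNA replicate 2 and with GC trends removed. The ratio of Pttg1 to Espl1 was 0.756 and 0.638 in control libraries and 1.20 and 1.24 in Hnrnpk siRNA libraries, on opposite sides of 1.

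**Figure D4:**
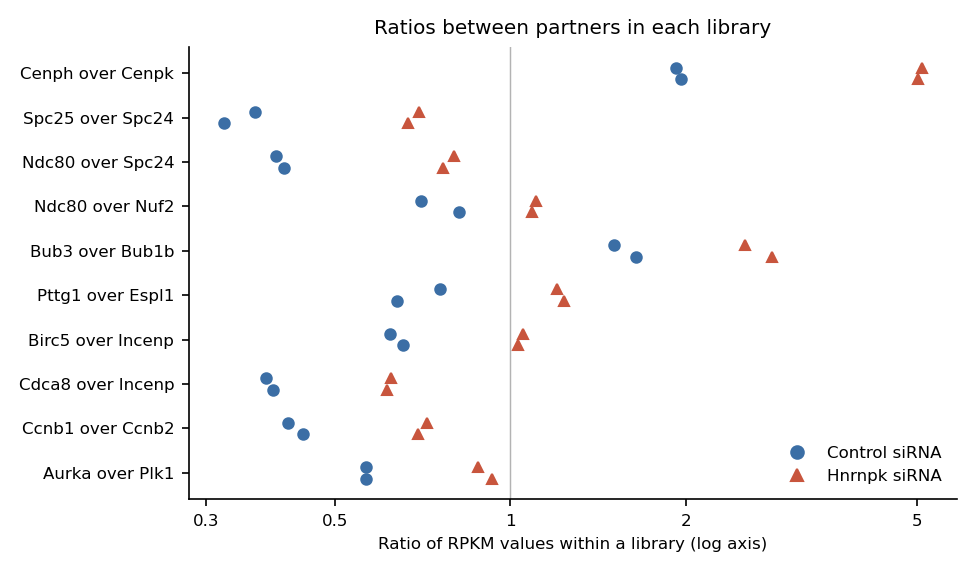
Ratio of the RPKM values of partner genes within each library, on a log axis, with circles for control siRNA and triangles for Hnrnpk siRNA libraries (n = 2 each); the vertical line is a ratio of 1. In each of the 10 pairs drawn, both Hnrnpk siRNA libraries lie to the right of both control libraries, and Cenph over Cenpk moves farthest, from 1.94 to 5.06 on average. The numerator of each pair is the gene with the higher log2 change, so the shift to the right follows from that layout.

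Ratios within a library do not depend on how libraries are scaled to each other. In all 12 pairs computed the groups did not overlap. The pairs were chosen after the values of their genes were seen, so that separation is a description. Each numerator is the gene with the higher log2 change, which fixes the direction of the shift. The fold between group means ran from 1.36 for Smc4 over Ncapd2 to 2.60 for Cenph over Cenpk. It was 1.95 for Ndc80 over Spc24, 1.63 for Birc5 over Incenp and 1.65 for Ccnb1 over Ccnb2.

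Condensin and topoisomerase II compact and untangle chromosomes. Of 5 such genes, 1 was called higher, 1 lower and 3 were not called, beside 67.2% of all genes tested called in either direction. Smc4, which forms the condensin ring with SMC2, measured 44.3 and 44.1 RPKM under control siRNA against 58.8 and 53.3 RPKM under Hnrnpk siRNA, a rise of 0.34 (SE 0.0676, limma adjusted p = 0.00161). Top2a went from 158 and 155 RPKM to 137 and 126 RPKM, a fall of 0.25 (SE 0.0665, adjusted p = 0.00865) that was lost without Hnrnpk siRNA replicate 2. Smc2 and Ncapg had log2 changes of 0.11 and 0.12 without a call. Ncapd2, second in mean level among the 49, was at 214 and 196 RPKM in control and at 193 and 189 RPKM after Hnrnpk siRNA, with no call (log2 change -0.10, adjusted p = 0.221).

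Spindle kinesins were called in 2 of 4 cases, where 67.2% of all genes tested were called. Kif4, a motor carried on chromosome arms, measured 16.3 and 14.0 RPKM under control siRNA against 19.1 and 18.6 RPKM under Hnrnpk siRNA, a rise of 0.31 (SE 0.0810, limma adjusted p = 0.00668). A stretch of 16.7% of the Kif4 transcript matches Pdzd11, a neighbour on the other strand. Kif18a, which damps chromosome movements at the plate, went from 8.27 and 7.91 RPKM to 6.71 and 6.69 RPKM, a fall of 0.26 (SE 0.0735, adjusted p = 0.0117). The Kif18a call was lost when either Hnrnpk siRNA library was left out. Kif11, the motor that pushes the poles apart, had a log2 change of -0.14 (adjusted p = 0.0679), and Kif2c, which shortens microtubules, had 0.052 (adjusted p = 0.457), both without a call. Kif11 was called lower after rescaling to a common sum, after quantile normalization and with GC trends removed.

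Of the cytokinesis genes 2 of 6 (33.3%) were called, both higher, where 32.2% of all genes tested were called higher and 35.0% lower. Kif20a, a motor that carries the passenger complex to the midzone, measured 124 and 125 RPKM under control siRNA against 184 and 190.4 RPKM under Hnrnpk siRNA. It rose by 0.58 (SE 0.0621, limma adjusted p = 2.87e-05). Exons of Cdc23 on the opposite strand cover 29.3% of the exonic bases of Kif20a, Cdc23 itself rose by 0.45, and the sources used here do not say whether reads were counted by strand. Prc1, which bundles midzone microtubules, rose by 0.23 (adjusted p = 0.0106) and lost its call without Hnrnpk siRNA replicate 1, after rescaling to a common sum and with GC trends removed; 30.1% of its transcript matches other annotated transcripts.

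The remaining cytokinesis genes were Kif23, a motor of centralspindlin, Ect2, which activates RhoA at the furrow, Anln, which links the furrow to actin, and Kif20b. Their log2 changes were 0.072, 0.13, 0.054 and -0.066, with adjusted p from 0.0850 to 0.542. None was called.

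Beyond the 49, 123 further genes of mitosis were measured from lists of kinetochore, checkpoint, APC/C, condensin and cohesin, spindle, and centrosome genes. In them 44 were called higher and 44 lower, with a median log2 change of -0.016. That is 71.5% called, near the background of 67.2% (32.2% higher and 35.0% lower), so calls in both directions within a list are what genes at large also show. At kinetochores Zwilch and Kntc1, parts of the complex that loads dynein, fell by 0.85 and 0.68, and Zwint, which docks that complex, rose by 0.66. Zw10, another part of the complex, was called higher (log2 change 0.17, limma adjusted p = 0.0391). That call was lost after rescaling to a common sum, after quantile normalization and with GC trends removed. Among APC/C subunits Anapc10, Anapc16 and Anapc11 rose by 0.85, 0.62 and 0.53, and Anapc5, Cdc16 and Anapc1 fell by 0.56, 0.53 and 0.40.

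Mad2l1bp, which encodes a protein that switches the checkpoint off, rose by 0.65, and Sgol1, which encodes the guardian of centromeric cohesin, rose by 0.59. In the same list of checkpoint and kinase genes, Nek6 and Nek9 had the largest falls, 0.79 and 0.60. Cks1b and Cks2, paralogs that bind CDKs, had log2 changes of 0.57 and -0.56. Cohesin and condensin genes were called lower in 7 of 17 cases (41.2%) and higher in 2 (11.8%), beside 35.0% and 32.2% of all genes tested. Top2b and the cohesin regulators Pds5a and Pds5b fell by 0.84, 0.67 and 0.53, and the cohesin subunit Rad21 rose by 0.45. Kif18b and Ckap2, both regulators of spindle microtubules, had the largest rises of these lists, 0.98 and 0.96. Mki67, the proliferation marker Ki-67, averaged 51.9 ± 1.31 RPKM in control and 38.3 ± 3.81 RPKM in Hnrnpk siRNA libraries (SD, n = 2 each), a log2 change of -0.44 (limma adjusted p = 0.000662). In centrosome and centriole genes 5 of 12 were called higher (41.7%) and 2 lower (16.7%), beside 32.2% and 35.0% of all genes tested.

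Transcription factors that drive or restrain mitotic genes were called higher in 9 of 18 cases and lower in 6, where 32.2% and 35.0% of all genes tested were. Foxm1, an activator of late cell cycle genes, was not called (43.9 ± 2.74 and 42.1 ± 0.282 RPKM, SD, n = 2 each; log2 change -0.058, adjusted p = 0.457 by limma). Mybl2, the B-MYB subunit of the activating MMB complex, rose by 0.23 (adjusted p = 0.0187), a call that held in 10 of 15 alternatives. Lin37 and Lin9, parts of the MuvB core, rose by 0.67 and 0.42. The largest rise of this list was that of Mybl1, 0.80. E2f4, the highest of the list by mean RPKM, fell by 0.38. Rbl1, which encodes the pocket protein p107, fell by 1.04, and Tfdp1, the partner of E2F factors, fell by 0.87. The repressors E2f7 and E2f8 fell by 0.79 and 0.77.

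Brakes on entry into mitosis were called higher in 9 of 15 cases and lower in 1, with a median log2 change of 0.57. Together 66.7% of the brakes were called, close to the 67.2% of all genes tested, of which 32.2% were higher. Cdkn1a, which encodes the CDK inhibitor p21, averaged 20.9 ± 6.65 RPKM in control and 76.4 ± 4.31 RPKM in Hnrnpk siRNA libraries (SD, n = 2 each), a rise of 1.88 (limma adjusted p = 7.86e-06). Plk2 rose most of the brakes, by 2.90. Gadd45b and Btg2, which respond to damage and stress, rose by 2.14 and 1.62, and Sfn, a 14-3-3 protein that holds CDK1 in the cytoplasm, rose by 0.90. Chek1, Chek2, Atm, Gadd45g and Rprm were not called. Atr, the kinase that senses stalled replication, was the 1 brake called lower, with 12.0 ± 0.459 RPKM in control and 3.88 ± 0.469 RPKM in Hnrnpk siRNA libraries (SD, n = 2 each), a log2 change of -1.52 (limma adjusted p = 9.38e-07). DNA replication genes, which act earlier in the cycle, were called higher in 5 of 40 cases and lower in 20, beside 32.2% and 35.0% of all genes tested, with a median of -0.16; Tk1 fell most, by 1.17. The difference between these lists and the 49 mitosis genes was not tested.

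**Figure D5:**
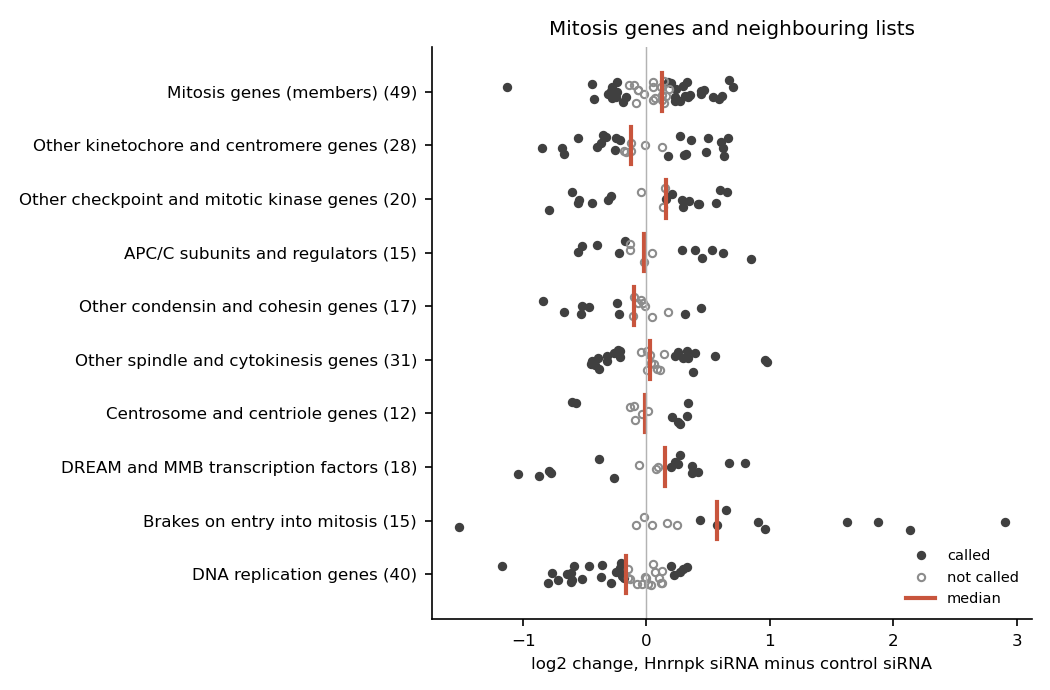
Log2 change (Hnrnpk siRNA minus control siRNA) of each gene by list, with the number of genes in brackets; filled points were called by limma, open points were not, and the bar is the median of the list. The 49 mitosis genes centre near 0.12 (0.00077 with GC trends removed), the brakes on entry into mitosis near 0.57 and the DNA replication genes near -0.16.

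Across the 49 genes Spearman's rho of the log2 change was -0.041 with the GC content of the longest transcript and -0.10 with exonic length, as a description over genes that share the same 4 libraries. Over all genes with a GC value among those tested, rho with GC content was -0.17. Mitosis genes had a median GC content of 46.1%, against 50.3% for all genes tested, and a median level of 55.6 RPKM against 9.38. The median log2 change of mitosis genes was 0.12, and 0.00077 with GC trends removed.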

How the data were processed

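RNA-seq was done on 4 libraries. The authors deposited 1 table of RPKM values with a column for each library; replicates were not pooled. BWA, SAMtools and the build mm9 are named in the submitters' processing notes; the sources used here do not give the counting tool, the annotation, strandedness or the handling of multiple matches. The labels name both removal of ribosomal RNA and poly(A) selection, without saying how they combine. RPKM values are not counts, so log2(RPKM + 0.5) was compared with limma 3.58.1 in R 4.3.3 (mean-variance trend, moderated two-sided tests, Benjamini-Hochberg over 12486 genes averaging 0.5 RPKM or more, called at an adjusted p under 0.05). The added 0.5 understates changes of low genes. limma and the depth estimate were tested on simulated data. In the limma simulation few genes changed, whereas 67.2% of all genes tested were called here, so it cannot speak for these calls. Positions and overlaps are from GENCODE M21 (GRCm38) by Ensembl identifier; near-identical transcripts were found with BLAST 2.17.0 (at least 95% identity over 100 bases). Promoter sequences are from RefSeq (GRCm38.p6).

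The members and lists were chosen with earlier results of these data known. Every member is named; values in each library are given for the called members with the largest rise and fall of each role, those with a log2 size of at least 0.5 and the 3 with the highest mean. Of other lists, up to 3 called genes in each direction, or any regulator or brake, may be named. Cenpi and Zw10 were named after their values were seen, and Cdc23, of the APC/C list, because it overlaps Kif20a. The 15 alternatives changed the added value, the filter, the scaling, the trend terms, the libraries or the replicate block.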

Additional observations from a re-analysis of the deposited data

How the results depend on the processing

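Of the 32 calls among mitosis genes, 22 held in all 15 alternatives (14 higher, 8 lower), and no called gene changed sign. Without 1 library at a time, where the lone library of a group is assumed to vary like the others, 16 to 19 genes were called higher and 8 to 13 lower, 8 without Hnrnpk siRNA replicate 2, and their median log2 change was 0.069 to 0.13, 0.069 without Hnrnpk siRNA replicate 1. That median was 0.038 after rescaling to a common sum, 0.085 after quantile normalization and 0.00077 with GC trends removed; the cause was not tested. Rescaling also left 3 DNA replication genes called higher in place of 5. Some mitosis genes without a call in the main analysis gained 1. Cenpa, Ncapd2 and Kif11 were called lower after rescaling, and Ccna2, Ncapd2 and Kif11 after quantile normalization. With GC trends removed Kif11 and Kif20b were called lower and Aurkb higher. With length trends removed Nuf2, Ncapg and Ect2 were called higher. Among genes not called, the sign turned after rescaling for Cenpe (-0.031), Kif2c (-0.036), Kif23 (-0.015) and Anln (-0.034), and with GC trends removed for Cenpe (-0.033), Ncapg (-0.11), Smc2 (-0.036), Anln (-0.0027), Ect2 (-0.012) and Foxm1 (0.0090). Without 1 library at a time it ranged from -0.17 to 0.026 for Cdc25b, -0.038 to 0.15 for Cenpe, -0.15 to 0.021 for Kif20b, -0.028 to 0.14 for Anln and -0.12 to 0.0046 for Foxm1. With the replicate number as a block, 20 mitosis genes were called higher and 13 lower; same-numbered libraries deviated together with a correlation of 0.027, so the numbers give no sign of pairing. Depth is known only relative to control replicate 1.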
